A study of Saccharomyces cerevisiae with 15 samples.

Results

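Light and dense cells of wild-type yeast cultures were compared across the transcriptome. The low density fraction (WT low density, 5 arrays) was set against the high density fraction (WT high density, 5 arrays) for 5449 genes of Saccharomyces cerevisiae, each represented by its brightest probe set, out of 15 arrays and the same 5449 genes in the whole series. Both groups have the genotype WT in the strain BY4741, a haploid yeast of mating type a used in laboratories. The cells were grown with shaking in YPD, a rich medium with 2% glucose, at 30 °C, and were parted by buoyant density on a Percoll gradient on day 3. A further group of 5 arrays, low density cells of a Rho0 strain that lacks mitochondrial DNA, entered the fit only through its share in the estimate of the spread. Each value is a log2 signal after RMA, so a difference tells how a transcript moved against the rest of its array. All differences below are WT low density minus WT high density. The number of arrays limits the precision. The fractions are mixtures, and fewer cells of a type and less RNA per cell cannot be told apart.

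When yeast exhausts glucose, part of the culture enters quiescence, a reversible arrest without division. In other work the dense fraction of such cultures was rich in quiescent cells, many of them newborn daughters with thick walls and stored carbohydrate, whereas the light fraction held more cells that had not entered that state. Entry into quiescence is known to involve low activity of the TOR and Ras/cAMP growth pathways, the kinase Rim15, and wide repression of transcription. No list of marker genes for the fractions was fixed, so the density labels were not checked against markers.

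The strain label was checked against background knowledge of BY4741, which carries deletions of URA3, LEU2 and MET17 (also called MET15). URA3 (2.14 ± 0.14 in WT high density and 2.26 ± 0.09 in WT low density, SD, n = 5) and MET17 (2.42 ± 0.21 and 2.38 ± 0.20) lay below the background level of 2.56, which is the 95th percentile of the mean signals of 1746 probe sets for another yeast, Schizosaccharomyces pombe. LEU2 stood just above it, at 2.67 ± 0.24 and 2.90 ± 0.21. The a-factor gene MFA1 was at 9.24 ± 0.03 and 9.50 ± 0.10. STE3, the receptor that alpha cells make, was at 3.94 ± 0.14 and 3.63 ± 0.15, low but above background. Other genes known as particular to alpha cells were also above it. MF(ALPHA)2, an alpha-factor gene, was at 6.20 ± 0.21 and 3.91 ± 0.50, and SAG1, the alpha agglutinin gene, at 10.27 ± 0.39 and 8.97 ± 0.24.

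The 2 fractions also differed in measures of the arrays themselves. The 25S rRNA probe set nearest the 5′ end averaged 7.87 ± 0.13 in WT high density and 11.36 ± 0.45 in WT low density (exact permutation test, two-sided, p = 0.00794, the smallest that 5 against 5 arrays can give, and 0.0147 after adjustment over 13 measures). The middle probe set averaged 10.99 ± 0.32 against 14.17 ± 0.04, and the 3′ one 13.94 ± 0.14 against 14.16 ± 0.02, a difference of 0.21. The 3′ minus 5′ difference of ACT1 was 1.57 ± 0.14 against 1.90 ± 0.12 (exact p = 0.00794). That of WBP1 was 2.43 ± 0.30 against 3.16 ± 0.38 (exact p = 0.0159). SPT15 (6.13 ± 0.68 against 6.96 ± 0.59, exact p = 0.0794) and RIP1 (1.29 ± 0.29 against 1.54 ± 0.14, exact p = 0.135) leaned the same way. Of the genes measured so, only TDH1 went the other way, 1.39 ± 0.46 against 0.77 ± 0.22 (exact p = 0.0238). The number of genes above background was 5112.8 ± 33.7 in WT high density and 4860.0 ± 25 in WT low density (exact p = 0.00794). Their part in the results below was not tested.

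In limma, 3663 genes were called at an adjusted p under 0.05, which is 67.2% of those tested. Of these, 1425 genes rose (26.2%) and 2238 fell (41.1%). The typical call was moderate. The median size of a called difference was 0.88 log2, 2138 called genes differed by less than 2-fold, and 269 differed by at least 4-fold. The 5 values of one group lay wholly above those of the other in 2609 genes (47.9%). At least 2-fold rises numbered 638 (11.7%) and at least 2-fold falls 887 (16.3%). The median over all genes was -0.17.

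How the arrays are scaled moves this balance. With quantile normalization of the yeast genes alone, 1774 genes were called higher and 1792 lower, a split of 49.7% higher among the calls against 38.9% without it. With arrays set to the same mean of the poly-A spike-in probe sets, 880 were called higher and 2462 lower (26.3% higher). The other 2 of the 4 scalings tried set arrays to the same median of the S. pombe probe sets or of the S. cerevisiae genes. The median of all genes stood at 0.00 with quantile normalization and at -0.40 with the poly-A scaling, in place of -0.17, so differences of that order have no firm sign.

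The excess of falls lay among dim and long genes. With genes divided into 5 equal bins (quintiles) by mean signal, in the dimmest bin, 66 rose and 533 fell, while in the brightest 423 rose and 397 fell. By gene length, 160 rose and 597 fell in the longest bin (2109 to 14733 bases), against 308 and 415 in the shortest. Of the 2096 genes that were in the brighter 3 of 5 bins and in the shorter 3 of 5 bins, 836 rose and 659 fell. This division was chosen after the data were seen, and it is given beside some of the gene groups below. Whether signal or length accounts for a fall was not tested. The mean signal was taken over all arrays, and more of these were of light cells than of dense cells. A gene high in both low density groups is thereby moved toward the brighter bins, and a gene low in both toward the dimmer ones. The counts by signal, and those among brighter and shorter genes, may thus partly reflect the difference itself, by an amount not tested.

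**Figure D1:**
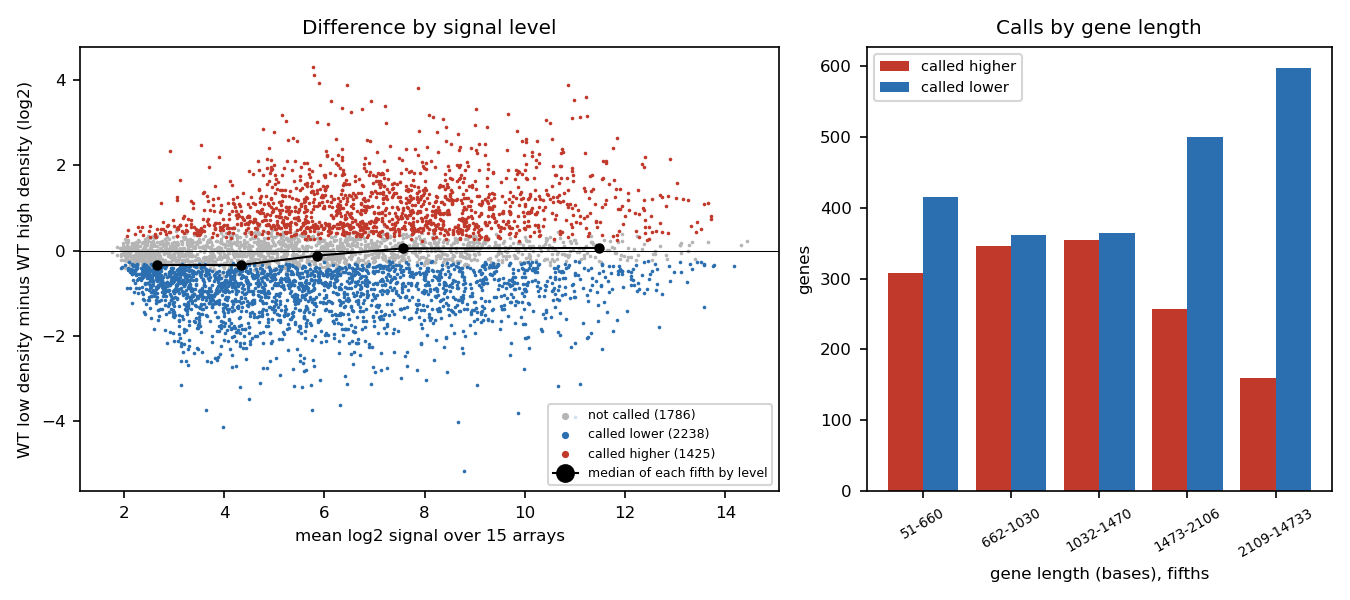
Left, difference of each gene against its mean log2 signal over 15 arrays, coloured by call, with the median of each quintile by level placed at the middle of its range. Right, genes called higher (1425 in all) and lower (2238 in all) in quintiles of gene length; among the longest genes 597 fell and 160 rose.

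Beyond the extreme tail, the next 10 rises and falls were a mixed company. Among the rises were the daughter cell genes DSE1 and DSE2, LST8, which encodes a subunit of both TOR complexes, and PHR1, which encodes the DNA photolyase. SMF2, a manganese transporter gene, rose by 3.16 log2, ZPR1, whose product helps fold a translation elongation factor, by 3.12, and OYE2, an NADPH oxidoreductase gene, by 3.09. SSA4 (3.14), HXK1 (3.11) and RGI1 (3.06) completed the rises. Among the falls, ULP1, which encodes a SUMO protease, fell by 3.15, THI4, the thiazole synthase gene of thiamine synthesis, by 3.03, and JHD2, a histone demethylase gene, by 2.95. SHH4 (-3.14), OCA5 (-3.13), STB2 (-3.12), ROG1 (-3.04), EFG1 (at least 6.68-fold lower, with the light cells below background), SNO4 (-3.15) and PAU3 (-3.11) completed the falls. SNO4 and PAU3 were read from probe sets that bind related genes too. All of these were picked from genes with no overlap between groups, which 47.9% of all genes showed. The largest fall of all, chosen here after its values were seen, was the unnamed reading frame YDL218W, at 12.16, 11.83, 12.33, 12.41 and 12.22 in the dense cells and 6.80, 6.84, 6.97, 7.36 and 7.11 in the light cells. That is a difference of -5.17 (SE 0.16), 36.1-fold.

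The genes were then read in 37 lists of functions, 1715 distinct genes in all, against the shares over all genes (26.2% called higher, 41.1% called lower, median -0.17). In 28 of the lists more members fell than rose, a number that was 18 with quantile normalization and 33 with the poly-A scaling. The list of daughter cell separation had the highest median, 0.94, and that of quiescence transcription factors the lowest, tied at -0.54 with DNA repair.

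**Figure D2:**
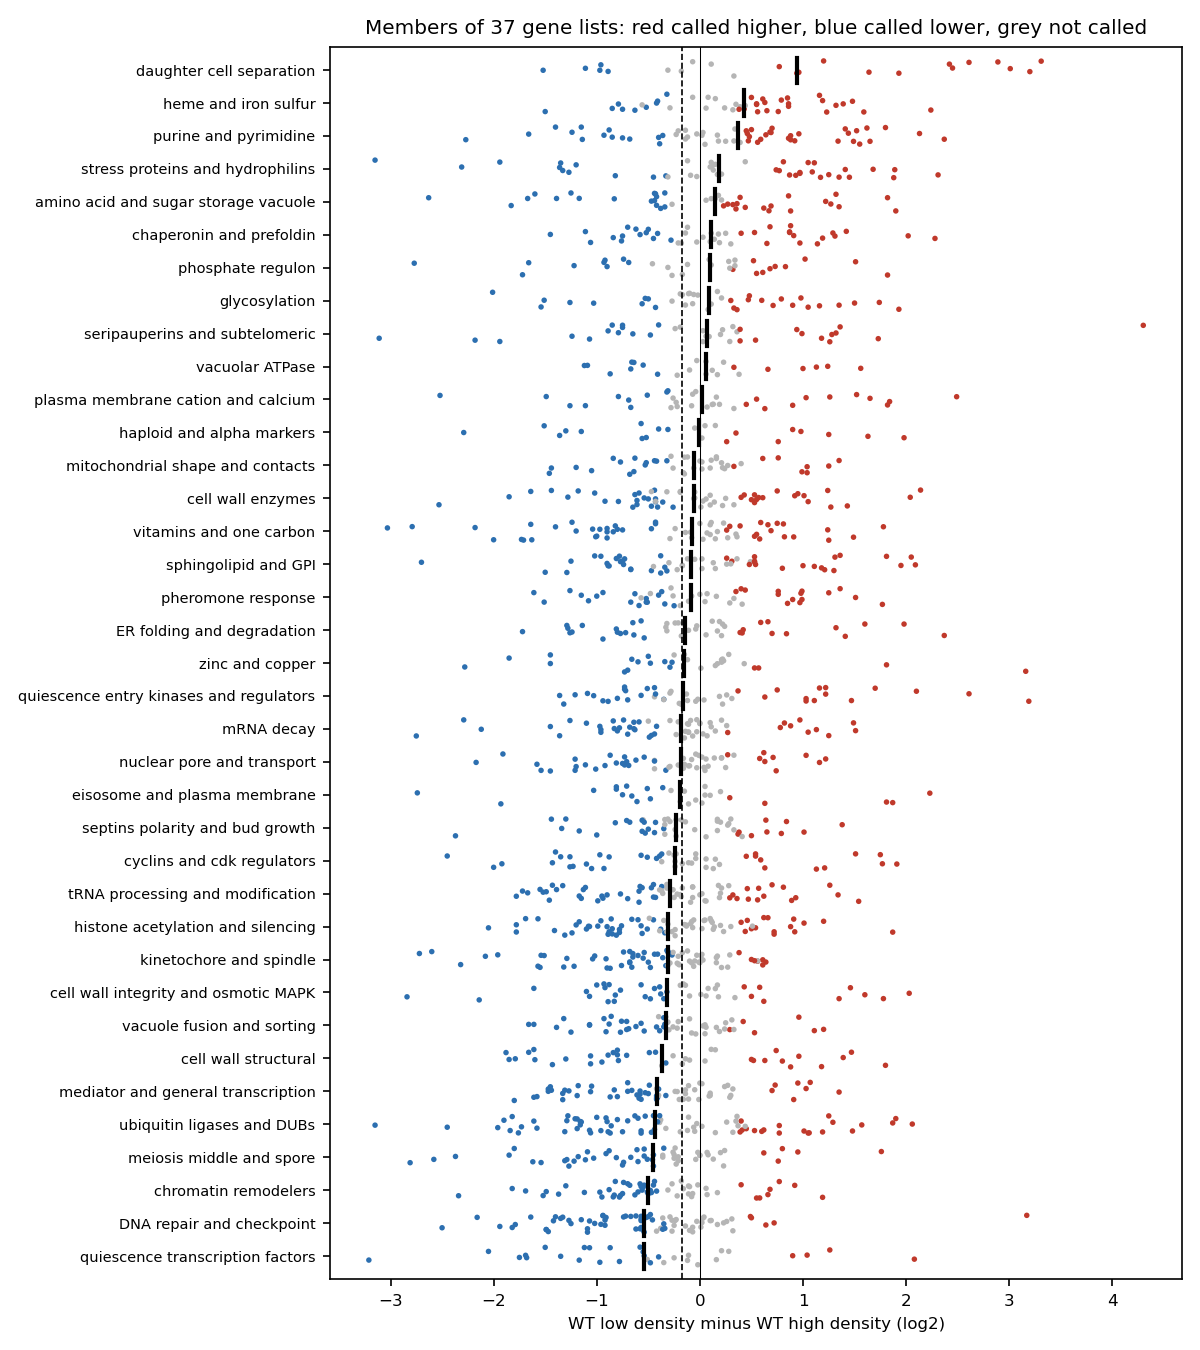
Log2 difference of each member of 37 gene lists, ordered by median (thick bar), with red called higher, blue called lower and grey not called. The dashed line is the median of all genes (-0.17). Daughter cell separation (median 0.94) is at the top, and lists of transcription, chromatin and DNA repair genes are at the bottom.

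When a yeast mother and daughter part, enzymes digest the septum between them from the daughter's side. Of 23 measured separation genes, 13 rose and 5 fell. Within the list, the 10 genes of septum-digesting enzymes, daughter wall proteins and related functions all rose, with a median of 2.53. They rose in 10 of 10 under each of 4 other scalings of the arrays as well. This division of the list, like those below, was made after the values were seen.

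SCW11, a glucanase-like gene of the daughter cell wall, was at 3.67, 4.13, 3.90, 3.49 and 3.30 in the dense cells and at 6.77, 6.56, 6.84, 6.80 and 6.56 in the light cells. The arrays of the groups lay far apart, and the difference was 3.01 (SE 0.14, adjusted p = 2.93e-12). CTS1, the endochitinase that severs the septum, was at 8.37, 8.68, 7.90, 7.77 and 8.41 against 10.84, 10.77, 10.93, 10.97 and 10.69. Every light array lay above every dense one, by 2.61 on average (SE 0.15, adjusted p = 3.57e-11). DSE2, a daughter cell wall gene, was at 7.61, 7.82, 7.37, 6.66 and 7.44 against 10.47, 10.63, 10.65, 10.70 and 10.45, a difference of 3.20 (SE 0.16, adjusted p = 1.02e-11). DSE1 (3.31), SUN4 (2.89), DSE4 (2.45), EGT2 (2.42), PRY3 (1.93), AMN1 (1.64) and DSE3 (1.20) rose too.

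Genes of the RAM network, a kinase pathway of cell separation and polarity, were mixed. CBK1, its kinase, was at 7.0, 6.90, 7.40, 7.46 and 7.30 in the dense cells and at 5.64, 5.47, 5.85, 5.90 and 5.61 in the light cells, a difference of -1.52 (SE 0.13, adjusted p = 5.70e-09). All its light arrays lay below the dense ones. HYM1, another RAM member, fell by 1.11, KIC1 rose by 0.77, and TAO3 (-0.31), SOG2 (-0.18) and MOB2 (-0.07) did not pass the test. SWI5, a cell cycle transcription factor gene, fell by 0.89.

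**Figure D3:**
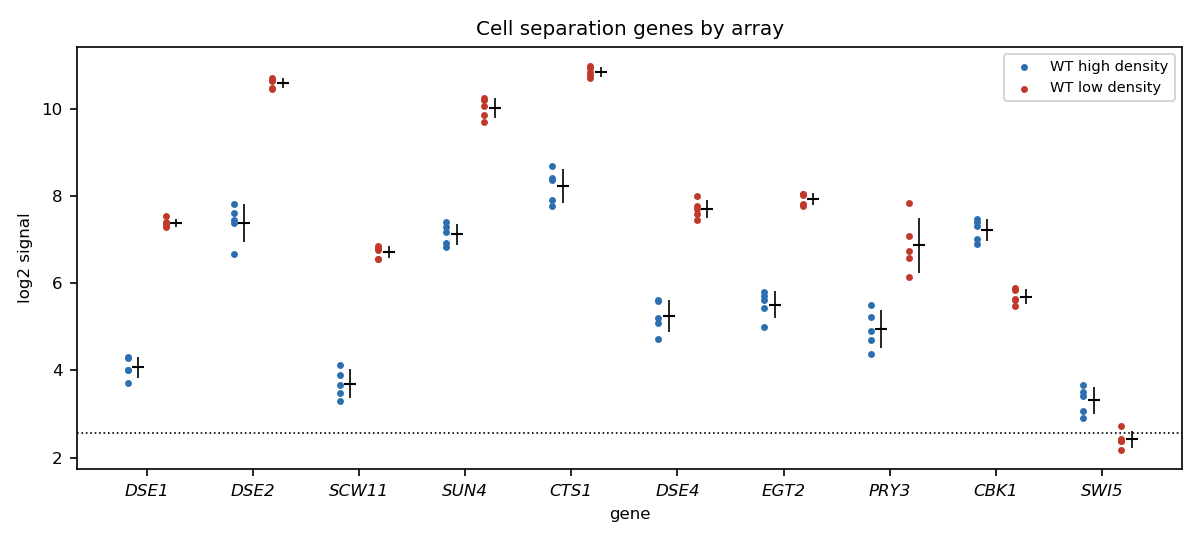
Log2 signal of 8 cell separation genes and the regulators CBK1 and SWI5 on each array (dots), with mean and SD (n = 5) in black and the background level of 2.56 dotted. The septum enzymes and daughter wall genes from DSE1 to PRY3 sit higher in WT low density, by 1.93 to 3.31, and CBK1 and SWI5 sit lower.

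The growth signalling genes moved in mixed directions. Of 46 measured kinases and regulators of quiescence entry, 14 rose and 17 fell (median -0.16), near the all-gene shares, and which side was larger turned with the scaling of the arrays. Among the 17 brighter and shorter members 11 rose and 3 fell (median 1.03), where 39.9% of all such genes rose and 31.4% fell. LST8, which holds the TOR complexes together, was at 6.64, 7.10, 6.85, 6.43 and 6.35 in dense cells and at 9.83, 9.62, 10.11, 9.90 and 9.88 in light cells. The light arrays were all higher, by 3.19 (SE 0.14, adjusted p = 2.14e-12). The 2 TOR kinase genes went the other way. TOR2 was at 8.34, 8.54, 8.42, 8.63 and 8.49 against 7.25, 7.07, 6.94, 7.13 and 7.26 (-1.36, SE 0.10, adjusted p = 2.03e-09), and TOR1 fell by 1.09. KOG1, a subunit of TOR complex 1, fell by 1.21 and TCO89 by 0.35, whose call was lost without WT high density replicate 3 or WT low density replicate 3 (-0.24 and -0.30). Apart from LST8, which is short, these genes are long.

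Of the 14 Ras and cAMP genes 5 rose and 5 fell. PDE1, the low-affinity phosphodiesterase that breaks down cAMP, was at 5.57, 5.06, 4.87, 5.0 and 4.74 in dense and 7.60, 7.73, 7.65, 7.63 and 7.67 in light cells, with no overlap (2.61, SE 0.13, adjusted p = 6.32e-12). BCY1, the inhibitory subunit of protein kinase A, rose by 1.16, TPK2, a catalytic subunit, by 1.11, and RAS2 by 1.03. GPR1, the sugar receptor, fell by 1.32 and its G protein gene GPA2 by 0.80. The phosphatase regulator SAP4 rose by 2.10. RIM15 (-0.44, adjusted p = 0.0602) did not pass the test, though it did without any one of 3 dense arrays (-0.56 without WT high density replicate 2) and with 2 of the scalings. Of the genes for its substrates, IGO1 rose by 1.22 (SE 0.13, adjusted p = 1.49e-07). IGO2 stood at -0.20 (SE 0.11, 95% interval -0.44 to 0.03), which leaves out a difference of 1.5-fold in the main fit. It passed the test with quantile normalization and with the S. pombe median scaling.

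Transcription factors associated with quiescence fell more often. Of 31, 18 fell and 4 rose (58.1% and 12.9%). They included IFH1, a coactivator of ribosomal protein genes, and STB3, a repressor of ribosome biogenesis genes. IFH1 was at 3.49, 4.48, 5.19, 5.0 and 4.68 against 2.11, 2.51, 2.46, 2.70 and 2.81, so the light cells were at background, at least 4.03-fold lower. STB3 was at 5.35, 4.05, 3.79, 4.29 and 3.91 against 2.31, 2.06, 2.44, 2.71 and 3.11, at least 3.30-fold lower. SSD1 (-1.5), MSN4 (-0.87) and MSN2 (-0.54), which encode a translation repressor and the 2 main stress factors, fell too. The rises were HAP4 (2.08), the activator of respiratory genes, HSF1 (1.26), the heat shock factor, and PHD1 (1.04). GIS1 (-0.35) and XBP1 (-0.51), linked to quiescence in other work, did not pass the test, but both passed without some single arrays (XBP1 at -0.74 without WT low density replicate 1, GIS1 at -0.44 without WT high density replicate 4 or 5). The call of MSN2 was lost with quantile normalization (-0.28). Most of the list's genes are dim or long: only 4 of the 31 were among the brighter and shorter genes, and 1 of those rose and 2 fell.

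Stress proteins rose more often than genes in general, 19 of 42 (45.2%), with 11 falls (26.2%). All 42 were among the brighter genes, of which 35.6% rose and 36.4% fell, so the excess over comparable genes was smaller. Among the 33 brighter and shorter members 48.5% rose and 21.2% fell, against 39.9% and 31.4% of all such genes. The list split by gene rather than by class. HSP12, which encodes a small membrane-protecting protein, was at 12.31, 12.21, 13.25, 12.74 and 12.57 against 13.62, 13.81, 13.71, 13.65 and 13.71, up by 1.09 (SE 0.15). GAD1 (2.31), which encodes glutamate decarboxylase, GCY1 (1.89) and DDR48 (1.88) rose more. Other stress genes ran the other way. SIP18, which encodes a hydrophilin, a protein that guards against drying, was at 14.52, 14.51, 14.54, 14.63 and 14.55 in dense cells and at 13.14, 13.32, 13.19, 13.17 and 13.29 in light ones. The groups did not overlap (-1.33, SE 0.09, adjusted p = 6.56e-10). The 14.63 is the highest signal in the whole table, and whether this probe set was saturated was not tested. GRE1 fell from 13.29 ± 0.16 to 10.97 ± 0.08 (-2.31, SE 0.11), RTN2 by 1.94 and CTT1, the cytosolic catalase gene, by 1.36. MOH1, a gene of stationary phase, stood at -0.03 with a 95% interval of -0.24 to 0.19.

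In the wall, synthases fell and certain mannoproteins rose. Of 39 structural wall protein genes 20 fell and 11 rose, CIS3 (1.80), HSP150 (1.39) and CCW12 (1.18) among the rises, TIR4 (-1.85) and PRY1 (-1.79) among the falls. Of the 20 brighter and shorter members 10 rose and 9 fell (median 0.28). All 3 glucan synthase genes fell, FKS1 by 0.92, GSC2 by 0.44 and FKS3 by 1.28, and these genes are long. SCW4, a wall glucanase, was at 11.48, 11.61, 11.36, 10.82 and 11.24 against 13.51, 13.46, 13.38, 13.46 and 13.39, a rise of 2.14 (SE 0.13, adjusted p = 5.55e-11). GFA1 (1.43) and GNA1 (2.04), enzymes that make the precursor of chitin, rose while the chitin synthase CHS3 fell by 0.59.

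Of the wall integrity and osmotic MAPK genes, 21 of 41 fell and 9 rose. Among the 7 brighter and shorter members 5 rose and none fell (median 0.62). MKK1, a kinase of the wall integrity branch, was at 10.28, 10.59, 9.89, 9.82 and 10.08 against 7.45, 7.19, 7.29, 7.25 and 7.27, a difference of -2.84 (SE 0.13, adjusted p = 3.00e-12). SLT2, the MAP kinase below it, fell by 0.93. Falls outnumbered rises in both branches, 11 against 3 of 20 wall integrity genes and 10 against 6 of 21 osmotic genes. WSC2, another gene of the list, rose by 1.78. Against these counts, the kinase genes HOG1 and PBS2 rose in the osmotic branch. HOG1, its MAP kinase, was at 8.71, 8.71, 8.67, 8.28 and 8.85 against 10.61, 10.59, 10.70, 10.74 and 10.75 (2.03, SE 0.11, adjusted p = 2.47e-11). PBS2, the kinase above it, rose by 1.6 (SE 0.16). At the membrane end of the pathway the sensor genes SLN1 and HKR1 fell, SLN1 by at least 3.03-fold and HKR1 by 2.14 log2.

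**Figure D4:**
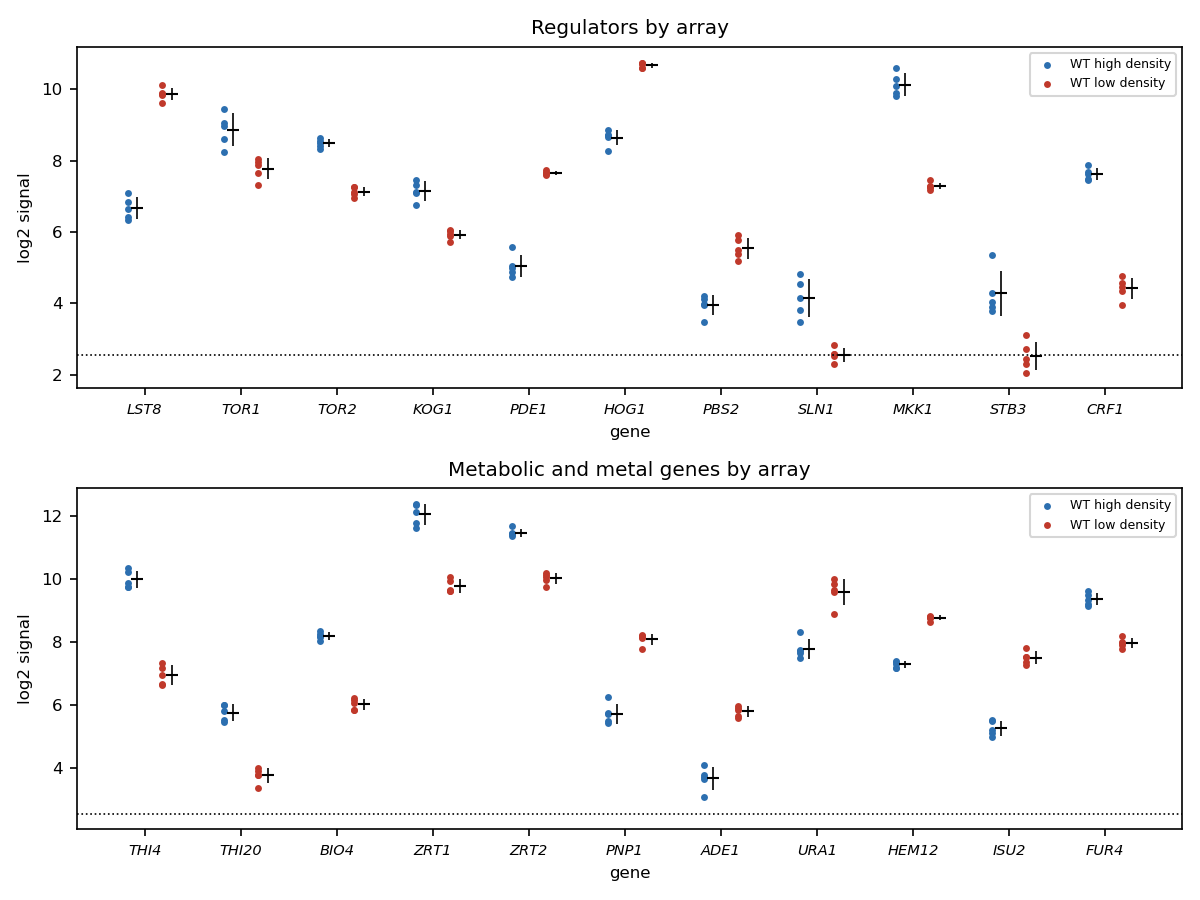
Log2 signal on each array (dots), with mean and SD (n = 5) in black and the background level of 2.56 dotted. Top, regulators, where LST8, PDE1, HOG1 and PBS2 sit higher in WT low density and the others sit lower. Bottom, metabolic and metal genes, where PNP1, ADE1, URA1, HEM12 and ISU2 sit higher and the vitamin and zinc genes and FUR4 sit lower.

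At the plasma membrane, 12 of 27 eisosome and membrane organizer genes fell and 5 rose. These shares, 44.4% and 18.5%, are near the 41.1% and 26.2% of all genes. With calls at the 1.5-fold threshold 3 fell and 3 rose. PIL1, the core eisosome protein, fell by 1.93 (SE 0.34), from 9.30, 8.17, 8.13, 7.92 and 7.56 to 7.12, 6.24, 6.10, 6.0 and 5.99. SUR7, a membrane protein of the same domains, rose, from 8.26, 8.09, 7.86, 7.87 and 8.23 to 10.11, 10.13, 10.25, 10.44 and 10.51 (2.23, SE 0.13, adjusted p = 3.68e-11). PIL1 and SUR7 thus moved apart in the same arrays, each without overlap. Their relatives did not follow them: LSP1, the duplicate of PIL1, stood at 0.10 and was not called, and FMP45, the duplicate of SUR7, fell by 0.36. NCE102 rose by 1.87, while its duplicate FHN1 fell by 0.81. Of calcium genes, CMK2, a calmodulin-dependent kinase gene, rose by 2.49 (SE 0.15) and RCN2 by 1.84, while CCH1, the plasma membrane calcium channel gene, fell by 2.52 (SE 0.15). PMA1, the proton pump, rose by 0.90.

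Lipid genes divided by route. Of 32 sphingolipid genes 15 rose and 9 fell, and of 25 GPI anchor genes 4 rose and 13 fell. The larger side held in each set under all 4 other scalings. ORM2, a brake on the first step of sphingolipid synthesis, was at 10.41, 10.35, 10.29, 9.79 and 9.94 against 12.41, 12.07, 12.34, 12.27 and 12.13 (2.09, SE 0.13, adjusted p = 8.47e-11). LCB5, a kinase of sphingoid bases, went from 7.40 ± 0.16 to 4.70 ± 0.49, a fall of 2.70. RSB1 (2.05) and SUR2 (1.81) rose. GPI13, which adds phosphoethanolamine to the anchor, fell by 1.5, and BST1 and GPI1 fell by 1.29 and 1.25.

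The zinc genes were lower in the light cells. Of 15 zinc genes, 10 fell and none rose, and 10 fell under quantile normalization, too. ZRT1, the high-affinity zinc importer gene, was at 12.41, 12.36, 11.64, 11.79 and 12.13 against 9.63, 9.63, 9.66, 9.96 and 10.07 (-2.28, SE 0.17, adjusted p = 1.59e-09). The groups did not overlap. ZRT2 fell by 1.45, and ZAP1, the activator that turns such genes on when zinc is short, by 1.85 (SE 0.37). COT1 (0.01), ZRC1 (0.15) and IZH2 (0.28) did not pass the test. The manganese gene SMF2 and the copper chaperone gene CCS1 (1.81) rose. PHO90, a low-affinity phosphate transporter, was at 11.86, 11.71, 11.73, 11.94 and 11.82 against 8.74, 8.89, 8.97, 9.26 and 9.35 (-2.77, SE 0.13), while the high-affinity transporter PHO84 stood at 0.29 (adjusted p = 0.231).

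Vitamin genes split by vitamin. Of 16 thiamine genes 10 fell and 2 rose, and of 5 biotin genes all 5 fell. THI4 was at 9.77, 9.75, 10.37, 10.22 and 9.88 in dense and at 6.65, 6.69, 6.95, 7.35 and 7.18 in light cells (-3.03, SE 0.16, adjusted p = 2.11e-11). The groups were far apart. THI20 fell by 2.00 and THI13 by 1.71, while the regulators THI2 (-0.09), THI3 (0.27) and PDC2 (0.03) did not pass the test. BIO4, a dethiobiotin synthetase, went from 8.21 ± 0.13 to 6.03 ± 0.18 (-2.18, SE 0.12). Of 15 genes of NAD synthesis 6 rose and 2 fell, BNA6 by 1.78 among the rises.

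Genes of nucleotide synthesis rose more often than they fell. Of 47 enzymes 26 rose and 8 fell (55.3% and 17.0%), and of 9 nucleobase permeases and regulators 1 rose and 6 fell. Among the 26 brighter and shorter enzymes 57.7% rose and 19.2% fell, against 39.9% and 31.4% of all such genes. PNP1, which splits purine nucleosides, was at 6.25, 5.72, 5.76, 5.43 and 5.51 against 8.19, 7.80, 8.13, 8.24 and 8.16 (2.37, SE 0.14, adjusted p = 6.71e-11). ADE1 (2.13), ADE2 (1.62), URA1 (1.80) and URA4 (1.55), of the de novo routes, rose. FUR4, the uracil permease gene, was at 9.35, 9.16, 9.21, 9.63 and 9.51 against 8.02, 7.90, 7.78, 7.99 and 8.20, and so fell by 1.40 without overlap. The ribonucleotide reductase genes, which make the DNA precursors, all fell: RNR1 (-0.48), RNR2 (-1.49), RNR3 (-1.02) and RNR4 (-0.94). With arrays set to the poly-A controls, the list of purine and pyrimidine genes had 16 rises and 15 falls, in place of 27 and 14.

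Heme and iron-sulfur genes rose too, 22 of 42, with 9 falls. Among the 27 brighter and shorter members 66.7% rose and 14.8% fell, against 39.9% and 31.4% of all such genes. Of 8 heme synthesis genes 7 rose, HEM14 (-0.85) being the exception. HEM12, uroporphyrinogen decarboxylase, was at 7.38, 7.41, 7.19, 7.20 and 7.32 against 8.65, 8.76, 8.85, 8.82 and 8.82 (1.48, SE 0.09, adjusted p = 1.73e-10). HEM4 rose by 1.59 and HEM1 by 1.32. ISU2, a scaffold on which iron-sulfur clusters are built, rose by 2.24 and GRX4, a regulator of iron sensing, fell by 1.5. With poly-A scaling 13 rose and 11 fell.

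Among genes of the nucleus, falls outnumbered rises in the lists for DNA repair, chromatin, transcription and the nuclear pore. Of 75 DNA repair genes 45 fell and 5 rose (60.0% and 6.67%). Among the 9 of these that were brighter and shorter, 8 fell and none rose. The MRX genes, which are dim (median signal 3.45), all fell. MRE11, which processes broken DNA ends, was at 4.13 ± 0.14 against 2.63 ± 0.42 (-1.49), so that the light cells were close to background. APN2, an endonuclease gene of base repair, fell by 2.50 and REV3, a translesion polymerase gene, by 2.16. PHR1, which uses light to reverse DNA damage, was the reverse case, at 2.80, 2.21, 2.86, 2.82 and 2.51 against 5.27, 5.47, 5.92, 6.09 and 6.30 (3.17, SE 0.18, adjusted p = 3.33e-11), so that the dense cells were close to background.

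Of 56 chromatin remodeler genes 34 fell and 8 rose. Among the 15 brighter and shorter ones, 6 rose and 6 fell. SWI1, a SWI/SNF subunit, fell by 2.34 and RSC2 by 1.82, and LDB7, an RSC subunit, rose by 1.19. Of 75 histone acetylation and silencing genes 33 fell (44%) and 15 rose, and of the 20 brighter and shorter ones 9 rose and 8 fell. Of 57 nuclear pore and transport genes 22 fell (38.6%, against 41.1% of all genes) and 9 rose, and of the 10 brighter and shorter ones 5 rose and 2 fell. Of 64 Mediator and general transcription genes 35 fell and 7 rose, and among the 21 brighter and shorter ones 8 fell and 5 rose. Of 72 kinetochore and spindle genes 38 fell and 7 rose, SPC98 by 2.72 and MIF2 by 2.60, and among 12 brighter and shorter ones 4 fell and 3 rose. Elongator genes, which modify tRNA, fell in 7 of 8, ELP3 by 1.78 (SE 0.13), from 6.79 ± 0.17 to 5.02 ± 0.25.

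Protein turnover was mixed. Of 79 ubiquitin ligase and deubiquitinase genes 41 fell and 20 rose. Among the 23 brighter and shorter members the sides were reversed, with 12 rises and 6 falls. ULP1, which releases SUMO from proteins, was at 10.84, 10.67, 10.60, 11.35 and 11.24 against 7.57, 7.94, 7.67, 7.90 and 7.89 (-3.15, SE 0.16, adjusted p = 6.36e-12). UBC8, the ubiquitin conjugating enzyme of the GID ligase that degrades gluconeogenic enzymes, went from 9.13 ± 0.27 to 11.19 ± 0.27 (2.06, SE 0.17). The polyubiquitin gene UBI4 rose by 1.06.

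Markers of other cell states were also read. Of 54 genes of middle meiosis and spore formation, 30 fell and 5 rose (55.6% and 9.26%), against 41.1% and 26.2% of all genes. The list is dim. Its median signal was 3.54, the top of the dimmest bin, where 533 of 1090 genes fell and 66 rose. With quantile normalization 22 of the list fell and 10 rose. Haploid cells do not sporulate, yet SPS100, a spore wall gene, was at 10.41, 9.55, 9.76, 9.47 and 9.38 in dense cells and at 7.09, 6.89, 6.84, 6.90 and 6.81 in light cells (-2.81, SE 0.17, adjusted p = 6.49e-11). Its level was well above background in both. NDT80, the master regulator of the program, was at 3.80 ± 0.27 against 3.35 ± 0.13 (-0.45), a fall that quantile normalization set to 0.00. Of 22 haploid and mating type genes 8 rose and 10 fell, and which side was larger turned with the scaling. The receptor gene of a cells, STE2, rose by 1.63. MF(ALPHA)2 fell by 2.29, FUS3, the MAP kinase gene of mating, by 1.51, HMRA1, a gene for the a1 regulator, by 1.36 and SAG1 by 1.30. Whether the HMRA1 probe set read the silent copy of this gene or the copy at the mating type locus was not tested. FAR1, an inhibitor of the cycle in mating and a member of the pheromone list, rose by 1.51. HO, the switching endonuclease gene, stood at 0.02.

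Paralogs, the related genes left by duplication, were also read in pairs. Of 97 measured pairs, both members rose in 19 and both fell in 14. In 19 pairs one rose and the other fell, with 36 pairs having one called member and 9 none. None of the 19 opposed pairs rested on a probe set shared with related genes. Over all genes 26.2% were called higher and 41.1% lower. Whether opposed calls were more frequent in these pairs than between unrelated genes was not tested. The pair furthest apart was PFK26 and PFK27, 2 enzymes that make fructose 2,6-bisphosphate, the activator of glycolysis. PFK26 was at 6.09, 4.91, 5.12, 5.14 and 4.70 against 2.47, 2.69, 2.54, 2.82 and 2.66 (-2.56, SE 0.21), and PFK27 at 4.73, 4.54, 4.55, 3.78 and 4.03 against 6.92, 6.65, 6.37, 6.44 and 5.94 (2.14, SE 0.21). Each pair member kept its arrays apart from the other group.

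The Hsp70 genes SSA3 and SSA4 are both induced by stress. SSA3 was at 11.56, 11.48, 11.83, 11.07 and 11.25 against 9.74, 9.80, 10.13, 10.02 and 10.19 (-1.46, SE 0.14). SSA4 was at 8.61, 8.33, 9.09, 9.14 and 8.91 against 11.73, 11.92, 12.16, 11.99 and 11.98 (3.14, SE 0.14). The dense cells thus had the more SSA3 signal and the light cells the more SSA4 signal. The acetyl-CoA synthetase genes parted likewise. ACS1, the form used without glucose, went from 13.03 ± 0.24 to 11.62 ± 0.21 (-1.41), and ACS2, the form used with it, from 5.97 ± 0.18 to 7.42 ± 0.08 (1.45). The ceramide synthase genes LAG1 (-0.81) and LAC1 (1.95), the ubiquitin conjugating enzyme genes UBC5 (-0.96) and UBC4 (1.25), the pyruvate kinase genes CDC19 (-0.48) and PYK2 (1.37), and the potassium transporter genes TRK1 (-1.49) and TRK2 (0.55) are further examples. The 14-3-3 genes BMH2 (-1.83) and BMH1 (0.55) were also opposed, but BMH1 lost its call without any one of 3 arrays (0.40 to 0.46). So did STV1 (0.33), the paralog of VPH1, without 8 of the 10 arrays left out in turn.

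**Figure D5:**
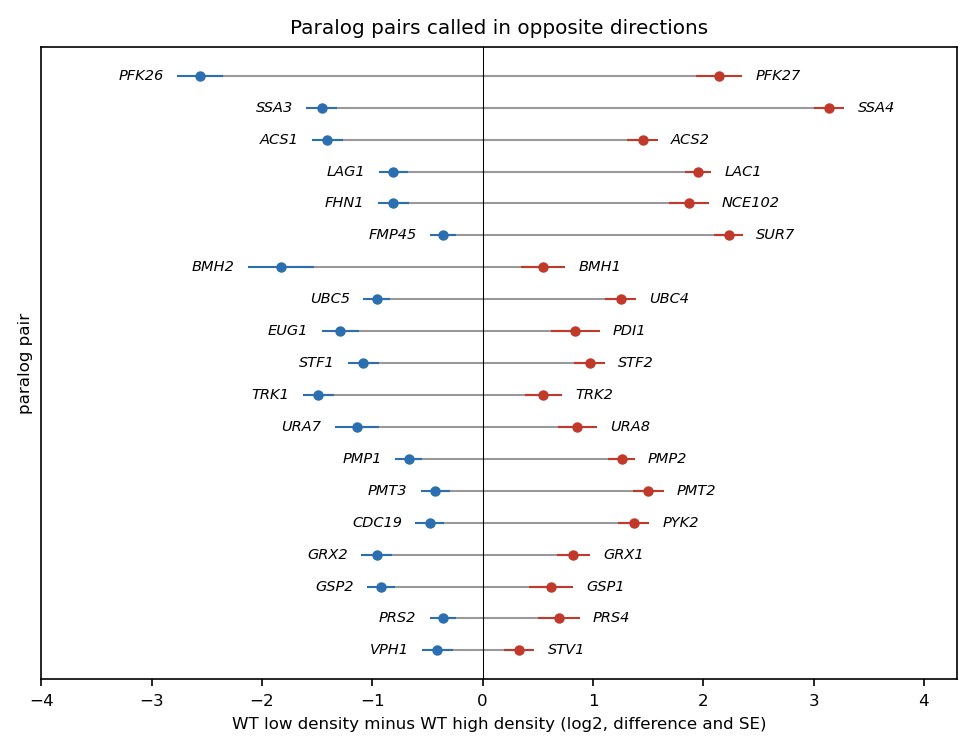
Log2 difference (dot) and SE (bar) of both members of the 19 paralog pairs called in opposite directions, ordered by the distance between members. PFK26 (-2.56) and PFK27 (2.14) are furthest apart, and VPH1 and STV1 closest.

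Small differences could be bounded for a minority of the genes. The 95% interval lay within 1.5-fold in either direction for 1391 genes (25.5%), of which 105 were called, while 500 genes were neither called nor bounded this way. Among the bounded genes were VMA1, a vacuolar ATPase subunit gene (-0.03, interval -0.25 to 0.20), and YDJ1, a cochaperone gene (0.03, interval -0.28 to 0.33).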

How the data were processed

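The authors deposited log2 signals, and the submitters' processing notes name RMA and Affymetrix Expression Console, for 15 arrays of the Yeast Genome 2.0 type. RMA gives the arrays a common distribution of probe signals. The labels call the 5 arrays of a group biological replicates but do not say that they came from separate cultures, so p-values measure the spread between these samples. Of 10928 probe sets, 7244 named 1 gene, 1 named several and 3683 named none. The 5498 probe sets of S. cerevisiae gave 5449 genes, where the brightest of several probe sets was taken for 47 genes. No genome build is named, so no coordinates are given, and gene lengths are those of the reference strain (97% are multiples of 3, so most are coding lengths). The 3 group means were estimated together by lmFit and eBayes of limma 3.58.1 under R 4.3.3 (12 residual degrees of freedom), with Benjamini-Hochberg adjustment over 5449 genes and a call at an adjusted p under 0.05. Differences are given with their SE, and as "at least" a fold where the lower group was at or below background. A gene was bounded when its 95% interval lay within 1.5-fold. Measures of the arrays were compared by exact two-sided permutation tests.

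The genes named are ranks 11 to 20 among the called, non-overlapping, standard-named rises and falls, up to 3 largest called rises and 3 falls of each list, chosen regulators, and both members of opposed paralog pairs. Members and lists were chosen with earlier results of these data known. The divisions of lists, and other genes named within them, were chosen after their values were seen. On simulated data with 5449 genes, 36% of changes of 0.5 log2 and 100% of changes of 1 to 3 log2 were recovered. There, 2.33% of calls were false. Whether these shares hold for the measured arrays, where 67.2% of genes were called, was not tested. Same-numbered arrays correlated in their deviations from the group means by 0.04 to 0.37, and differently numbered ones by -0.47 to 0.35. These values cannot decide whether the samples are paired. The numbers were not taken to pair them in the main fit. Alternatives were other scalings, filters, weights, thresholds and each array left out. No columns were unused (0). The result for 1 gene is not reported here, although counts of genes and of list members include it.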

Additional observations from a re-analysis of the deposited data

Results flagged for a closer look

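A value was flagged where the highest or lowest of the 5 arrays of a group lay far from the others by Dixon's test (0.71 for 5 samples). Of 374 tests of named genes and array measures, 17 were flagged, and chance flags about 1 in 20. Of the flags, 9 were dense and 8 light arrays, and no array held more than 4.

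Among dense arrays, replicate 1 was highest for SSD1 (8.41, next 7.03) and GPA2 (7.04, next 5.93) and lowest for EFG1 (4.27, next 5.46). Replicate 3 was highest for BNA6 (10.35), TDH1 (12.43) and THI2 (6.16) and lowest for the 25S rRNA 5′ probe set (7.65). Replicate 4 was lowest for CDC19 (12.30) and replicate 5 for THI3 (3.52). Among light arrays, replicate 1 was highest for COT1 (8.22), PIL1 (7.12) and TPK2 (8.46), replicate 2 lowest for PNP1 (7.80), PYK2 (9.89) and RTN2 (5.51), replicate 3 lowest for TCO89 (4.27) and replicate 5 highest for TRK1 (6.99).

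Of 3517 probe sets with no gene name and no control role, 528 were above background, and 190 of these were called (105 higher and 85 lower in WT low density). They belong to no comparison above.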

How the results depend on the processing

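Calls numbered 3342 to 3757 over the alternatives other than the 1.5-fold threshold, which gave 1606 (679 higher, 927 lower) and 5 opposed paralog pairs. With the poly-A scaling 880 genes were called higher, and 566 were bounded within 1.5-fold. With quantile normalization 18 lists had more falls than rises, against 28. Leaving out 1 array at a time gave 3512 to 3656 calls (1366 to 1423 higher and 2146 to 2250 lower), 1261 to 1369 bounded genes, 17 to 21 opposed pairs and 25 to 29 lists with more falls. Of 153 called genes named above, 149 to 152 were called in these fits. Outside the 1.5-fold threshold 10 of the 153 lost their call under some alternative, and 10 uncalled ones gained one. STE3 changed sign with quantile normalization (0.10), for which the cause was not tested. The replicate number as a block (replicate block) gave 3639 calls, and 3 of 5 dense and 3 of 5 light arrays correlated best with their own number. It removed the calls of MFA1, STE3 and TCO89 and gave one to XBP1. Of the array measures 9 passed, and 0 with same-numbered differences, where the smallest possible exact p is 0.0625. Promoter motifs were not analysed here, for want of the sequences. For genes at or below the background level the fold is only a bound.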
